A study of Mus musculus with 6 samples.

Results

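The genes described here are the mouse cadherins and the protocadherins that lie outside the large clustered arrays. They were taken from the count table as the protein-coding genes named Cdh or Pcdh followed directly by a number, which gave 35 genes of 53715 in the table, 23 named Cdh and 12 named Pcdh. The naming rule is wider than the classical family. It also takes Cdh13, Cdh16, Cdh17, Cdh23 and Cdh26, which are not classical cadherins, and Pcdh15, which is a protocadherin of sensory hair cells. Hippocampal RNA was sequenced from 6 male C57BL/6J mice aged 2 to 3 months, with no genetic change named in the labels. For 3 weeks 3 of the mice ate a control diet and 3 a ketogenic diet, which is high in fat and low in carbohydrate and raises blood ketone bodies. The series is about neuregulin 1 and its receptor ErbB4 in the action of this diet on inhibition and seizures, and the cadherin genes are compared here between the diets. Libraries are named by diet and number, as control 1 to 3 and ketogenic 1 to 3.

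Cadherins are calcium-dependent adhesion proteins that span the cell membrane. Classical cadherins bind the same or a related cadherin on the next cell with their outermost domain, and their tail holds p120 catenin and beta-catenin, which connects through alpha-catenin to actin. The type I group includes the epithelial, neural, placental and retinal cadherins, and the type II group is expressed in partly overlapping sets of neurons, so that brain nuclei, cortical layers and hippocampal fields carry different combinations. The delta protocadherins lack the catenin-binding tail, and several of them bind the WAVE complex, a regulator of actin branching. In the hippocampus, N-cadherin holds synapses together, cadherin-9 acts at the synapses of mossy fibres on CA3 neurons, and protocadherin-19 is a gene of epilepsy in girls and women.

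Libraries held 16832240 to 18357792 gene counts. The tissue label is hippocampus, although the extraction text names retina. Of 20 retina markers 5 had enough counts to test, the whole list summed to between 24.6 and 36.9 CPM (counts scaled to a common library size) in any library, and Crx was at 0 in all of them. The 10 hippocampal neuron markers summed to 8623 to 8854 CPM on control diet and to 6237 to 7342 CPM on ketogenic diet. Of these 10 markers 7 fell and 1 rose, and 7 also stand in other marker lists used below. Libraries within a diet were unlike in several marker sets. Choroid plexus markers summed to 837.7 to 7523 CPM in the control libraries, with control 1 highest and control 3 lowest. In the ketogenic libraries they summed to 85.9 to 146.2 CPM. Results are therefore also given without control 1 and control 2. Across ketogenic 1, 2 and 3, dentate granule cell markers summed to 1160, 981.8 and 856.3 CPM. Interneuron markers summed to 1562, 1820 and 2090 CPM in the same order. In a bulk sample, fewer cells of a type and less RNA per cell cannot be told apart.

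Most of the 35 genes were expressed, over a wide range of levels. On the FPKM scale, which counts fragments per kilobase of gene and per library size and so allows genes to be compared, 6 had a mean over the 6 libraries of at least 10, 17 lay between 1 and 10, and 12 were under 1. Pcdh1, a delta-1 protocadherin, was highest. Its FPKM level was 50.7, 47.1 and 50.7 in the control libraries and 42.8, 43.8 and 44.9 in the ketogenic libraries. Pcdh20 followed, with FPKM levels of 29.7, 29.7 and 29.5 on control diet and 25.5, 25.2 and 26.7 on ketogenic diet. For both genes every ketogenic library was below every control library, and the 2 genes did not overlap each other in level. Pcdh9 stood next, at FPKM levels of 15.4, 16.4 and 18.2 against 17.8, 18.7 and 18.9. Pcdh8, a protocadherin induced by neuronal activity and also called arcadlin, had FPKM levels of 19.0, 17.7 and 17.8 on control diet and 14.0, 15.5 and 18.3 on ketogenic diet. Cdh2, the gene of N-cadherin, was the most abundant classical cadherin, with FPKM levels of 13.0, 12.8 and 14.4 and then 13.3, 14.97 and 15.9. The ranges of Pcdh9, Pcdh8 and Cdh2 overlapped, so their order is not resolved. Pcdh19, Cdh11, Cdh9, Cdh8, Pcdh17 and Pcdh10 came next, with mean FPKM levels from 10.4 down to 7.91.

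**Figure D1:**
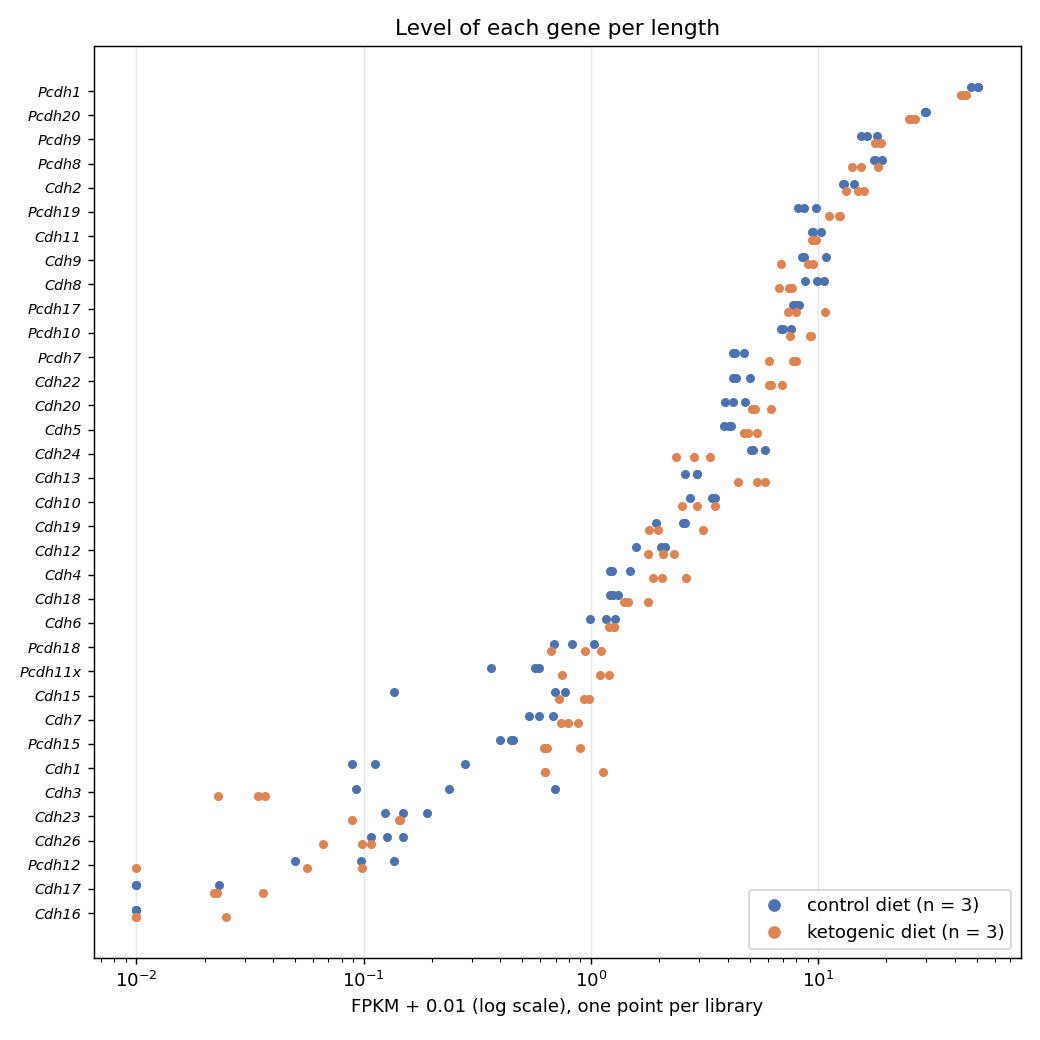
Level of all 35 genes in each library as FPKM + 0.01 on a log axis, ordered by the mean, with control libraries in blue and ketogenic libraries in orange (n = 3 each). Pcdh1 stands highest at 42.8 to 50.7 FPKM, and Cdh16 and Cdh17 are at or near 0.

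The lowest genes included some of other tissues. Cdh16 and Cdh17, the kidney and the liver-intestine cadherins, had mean FPKM levels of 0.0025 and 0.011, and Cdh16 had a single count in all. Cdh26 had between 3 and 7 counts per library, and Pcdh12, an endothelial protocadherin, between 0 and 13. These 4 genes and Cdh3 did not pass the filter on low counts, so 30 of the 35 were tested. Summed over all 35 genes the level was 1638 to 1704 CPM on control diet and 1645 to 1849 CPM on ketogenic diet, ranges that overlap.

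With the ketogenic diet 8 of the 30 tested genes rose and 2 fell. Those that rose were Cdh1 and Cdh4 of the type I group, Cdh22 of the type II group, the lipid-anchored Cdh13, and 4 protocadherins, Pcdh7, Pcdh11x, Pcdh15 and Pcdh19. Those that fell, Cdh8 and Cdh24, are both type II cadherins. Counted over all 16478 tested genes, 5.05% rose and 4.62% fell, 9.67% in all. The median log2 fold change of the 30 genes was 0.14, against -0.01 over all tested genes. In 16 of the 30 there was no overlap between the diets, with 12 genes above and 4 below, where 27.6% of all tested genes do not overlap, 14.0% above and 13.6% below. Cdh1 passed the filter through its ketogenic libraries and had to differ; without it 7 of 29 rose and 2 fell. A gene is said to rise or fall where its adjusted p is under 0.05 in the quasi-likelihood test of edgeR, with the Benjamini-Hochberg method applied across the 16478 genes. Log2 fold changes are those of ketogenic over control, each followed by its standard error after ±. The counts depended on single libraries: 3 rose and 1 fell without control 2, 4 and 1 without ketogenic 2, and 5 and 1 without ketogenic 3. Without control 1 and control 2 together, a fit that assumes the single control left to vary as the ketogenic libraries do, 3 rose (Cdh1, Cdh13 and Pcdh7) and 1 fell (Cdh24).

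**Figure D2:**
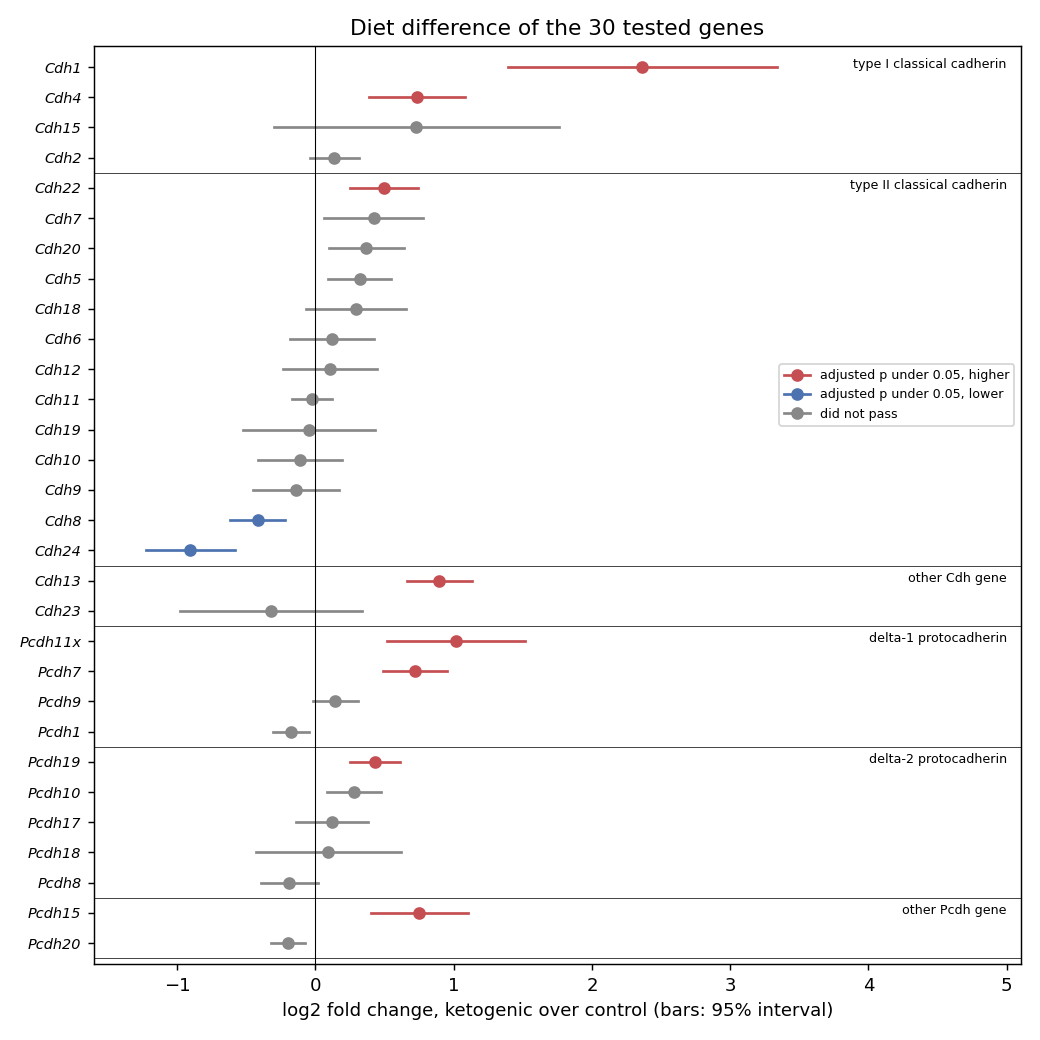
Log2 fold change, ketogenic over control, of the 30 tested genes, grouped by class; bars are 95% intervals from edgeR and colour gives the call. The 8 genes that rose lie between 0.43 and 2.36, and the 2 that fell at -0.42 and -0.90.

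Among the 5 type I cadherins, Cdh1 and Cdh4 rose, Cdh2 and Cdh15 did not pass, and Cdh3 was too low to test. Cdh1 encodes E-cadherin, the adhesion protein of epithelia (ENSMUSG00000000303, chromosome 8, 106603351 to 106670246, plus strand, GRCm38). Its level was 0.47, 1.24 and 0.36 CPM on control diet and 2.86, 2.85 and 5.13 CPM on ketogenic diet, or 8, 21 and 6 counts against 53, 50 and 87. All ketogenic libraries were above all control libraries, in a gene that is low in this tissue. The log2 fold change was 2.36 ± 0.44 (adjusted p = 0.00854), with 0.63 to 3.29 over the 14 alternatives. Because 3 ketogenic libraries but 1 control library were over the filter's cut, the gene was bound to differ once kept, so these values describe it and its p is no support for the rise. In the same libraries 13 of 15 fibroblast and leptomeninges markers rose, with a summed level of 609.3 to 756.1 CPM on control diet and 1632 to 2275 CPM on ketogenic diet and no listed marker at 0. Whether these cells had a part in the rise of Cdh1 was not tested.

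Cdh3, the gene of P-cadherin, ends 46053 bases before the start of Cdh1 on chromosome 8 (106510891 to 106557297, plus strand), and its values went the other way. Control libraries 1, 2 and 3 stood at 3.02, 1.00 and 0.36 CPM, from 51, 17 and 6 counts. The ketogenic libraries had 0.11, 0.057 and 0.12 CPM, from 2, 1 and 2 counts. The diets did not overlap, but control 3 stood far below control 1. Over the pooled 74 and 5 counts the control level was 15.6 times the ketogenic level, with an exact 95% interval of 6.39 to 49.5 that covers counting error only. Without a filter on low counts Cdh3 fell by 3.86 on the log2 scale (edgeR, adjusted p = 4.08e-07), and DESeq2 gave -3.95 (adjusted p = 0.000854). Adjusted p without the filter cannot be set beside that of the main edgeR fit. For Cdh13 it was 2.74e-13 without the filter and 0.00147 with it, and for Pcdh20 0.106 and 0.0545. No fit of Cdh3 without control 1 and control 2 is given, and control 3 had 6 counts against 2, 1 and 2. Of 16 choroid plexus markers 15 fell, and the order of the control libraries in Cdh3 is that of the summed choroid plexus markers, given above, of which only Steap1 was at 0 in a library, ketogenic 2. The part of choroid plexus tissue in the difference of Cdh3 was not tested.

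Cdh4 encodes R-cadherin, first described in retina and also present in developing brain (chromosome 2, 179442431 to 179899373, plus strand). Its level was 10.8, 8.86 and 9.02 CPM on control diet and 13.7, 15.03 and 19.1 CPM on ketogenic diet. The lowest ketogenic library was above the highest control library, and the log2 fold change was 0.73 ± 0.16 (adjusted p = 0.0159). The call was lost without control 2, ketogenic 2 or ketogenic 3 (adjusted p = 0.0799, 0.0599 and 0.0563), without control 1 and control 2 together (adjusted p = 0.103), and by a narrow margin in limma on FPKM values. Cdh2, given above as the most abundant classical cadherin, had a log2 fold change of 0.14 with a 95% interval of -0.04 to 0.32 (adjusted p = 0.361). Cdh15, the muscle M-cadherin, is set by 1 library. It had 0.41, 2.25 and 2.48 CPM on control diet and 3.18, 2.33 and 3.01 CPM on ketogenic diet, and control 1 alone was low (log2 fold change 0.73, interval -0.30 to 1.76, adjusted p = 0.405).

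All 13 type II cadherins were tested, with 1 rise, 2 falls, 10 without a call and a median log2 fold change of 0.10. Cdh24 showed the larger of the falls (ENSMUSG00000059674, chromosome 14, 54631231 to 54641364, minus strand). Mice on control diet had 18.2, 17.7 and 20.5 CPM, and those on ketogenic diet 11.8, 10.02 and 8.31 CPM. Every ketogenic library lay well below every control library, at a mean of 10.03 ± 1.72 CPM (SD, n = 3) against 18.8 ± 1.499 CPM. With a log2 fold change of -0.90 ± 0.14, the gene passed (adjusted p = 0.00427), and the call was kept in all 14 alternatives, with adjusted p up to 0.0358. Cdh24 is known as a gene of the CA3 field. Of 14 markers of CA2 and CA3, 8 fell, with a summed level of 1552 to 1687 CPM on control diet and 1212 to 1371 CPM on ketogenic diet and none at 0 in any library. By sign, 5 of the 14 log2 fold changes were above 0 and 9 below. Nptx1, the most abundant of the 14, went from a mean of 879.1 to 658.9 CPM and weighs most in the sum. Of these markers 5 also stand in other lists, among them Sostdc1 in that of the choroid plexus and Prkcd in that of thalamus and habenula, and of the other 9 markers 4 fell. The part of CA2 and CA3 cells in the fall of Cdh24 was not tested.

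Cdh8, a cadherin of cortical and thalamic circuits that is also found at mossy fibre synapses, fell as well (chromosome 8, 99024471 to 99416471, minus strand). Levels of 67.9, 77.4 and 82.5 CPM on control diet compared with 60.0, 58.3 and 52.2 CPM on ketogenic diet. The diets were apart, with control 1 the nearest to the ketogenic libraries. Its log2 fold change was -0.42 ± 0.09 (adjusted p = 0.0169). The call was lost without control 2, ketogenic 2 or ketogenic 3 (adjusted p = 0.0711, 0.0690 and 0.0565) and without control 1 and control 2 together (adjusted p = 0.0511). Of 15 markers of dentate granule cells 9 fell, with a sum of 1580 to 1805 CPM on control diet and 856.3 to 1160 CPM on ketogenic diet and none at 0, and their part in the fall of Cdh8 was not tested.

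Cdh22 was the type II cadherin that rose (chromosome 2, 165111507 to 165234853, minus strand). It had 16.2, 15.8 and 18.6 CPM on control diet and 23.0, 22.6 and 25.6 CPM on ketogenic diet, with no overlap. The log2 fold change was 0.49 ± 0.11 (adjusted p = 0.0199). It no longer passed without control 1 or 2 or without ketogenic 2 or 3 (adjusted p = 0.0545, 0.0910, 0.0658 and 0.0733), nor without both of the first controls (adjusted p = 0.326). Cdh5, Cdh7, Cdh18 and Cdh20 had no overlap between the diets either, with every ketogenic library higher, but did not pass. Cdh5, or VE-cadherin, which joins endothelial cells, had 17.5, 16.3 and 17.1 CPM against 20.9, 20.0 and 22.7 CPM (log2 fold change 0.32, interval 0.09 to 0.55, adjusted p = 0.0837). Of 15 endothelial markers 0 passed in edgeR, with 2 at an unadjusted p under 0.05 and 0 in DESeq2, and their sum was 492.7 to 579.5 CPM on control diet and 540.0 to 561.4 CPM on ketogenic diet.

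The other type II genes showed no difference beyond the spread between libraries. Cdh11, found in mesenchymal cells and neurons, had the narrowest interval, with a log2 fold change of -0.02 and an interval of -0.17 to 0.12, while fibroblast markers rose in the same libraries. Cdh9 and Cdh10, closely related cadherins of excitatory neurons, stood at -0.14 (interval -0.45 to 0.17) and -0.11 (interval -0.42 to 0.20). Cdh19, expressed in the oligodendrocyte and Schwann cell lineages, stood at -0.05 (interval -0.52 to 0.43). In the same libraries 14 of 18 myelin markers fell. The part of fibroblasts in the level of Cdh11, and of oligodendrocytes in that of Cdh19, was not tested. Cdh6 and Cdh12 stood at 0.12 and 0.10 (adjusted p = 0.667 and 0.755).

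Among the remaining Cdh genes Cdh13 rose and Cdh23 did not pass. Cdh13 encodes T-cadherin, which is held in the membrane by a lipid anchor, has no tail and binds adiponectin (ENSMUSG00000031841, chromosome 8, 118283733 to 119324921, plus strand). Control mice had 32.9, 29.4 and 32.9 CPM, and ketogenic mice had 50.3, 61.1 and 65.9 CPM. Means of 31.7 ± 2.01 and 59.1 ± 7.98 CPM (SD, n = 3) gave a 1.86-fold difference. With a log2 fold change of 0.90 ± 0.11 it had the smallest adjusted p of the set (0.00147), and it passed in all 14 alternatives, with adjusted p up to 0.0384. Cdh23, which with Pcdh15 forms the tip links of inner ear hair cells, had 33, 52 and 39 counts against 25, 40 and 39 (log2 fold change -0.32, interval -0.98 to 0.34).

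**Figure D3:**
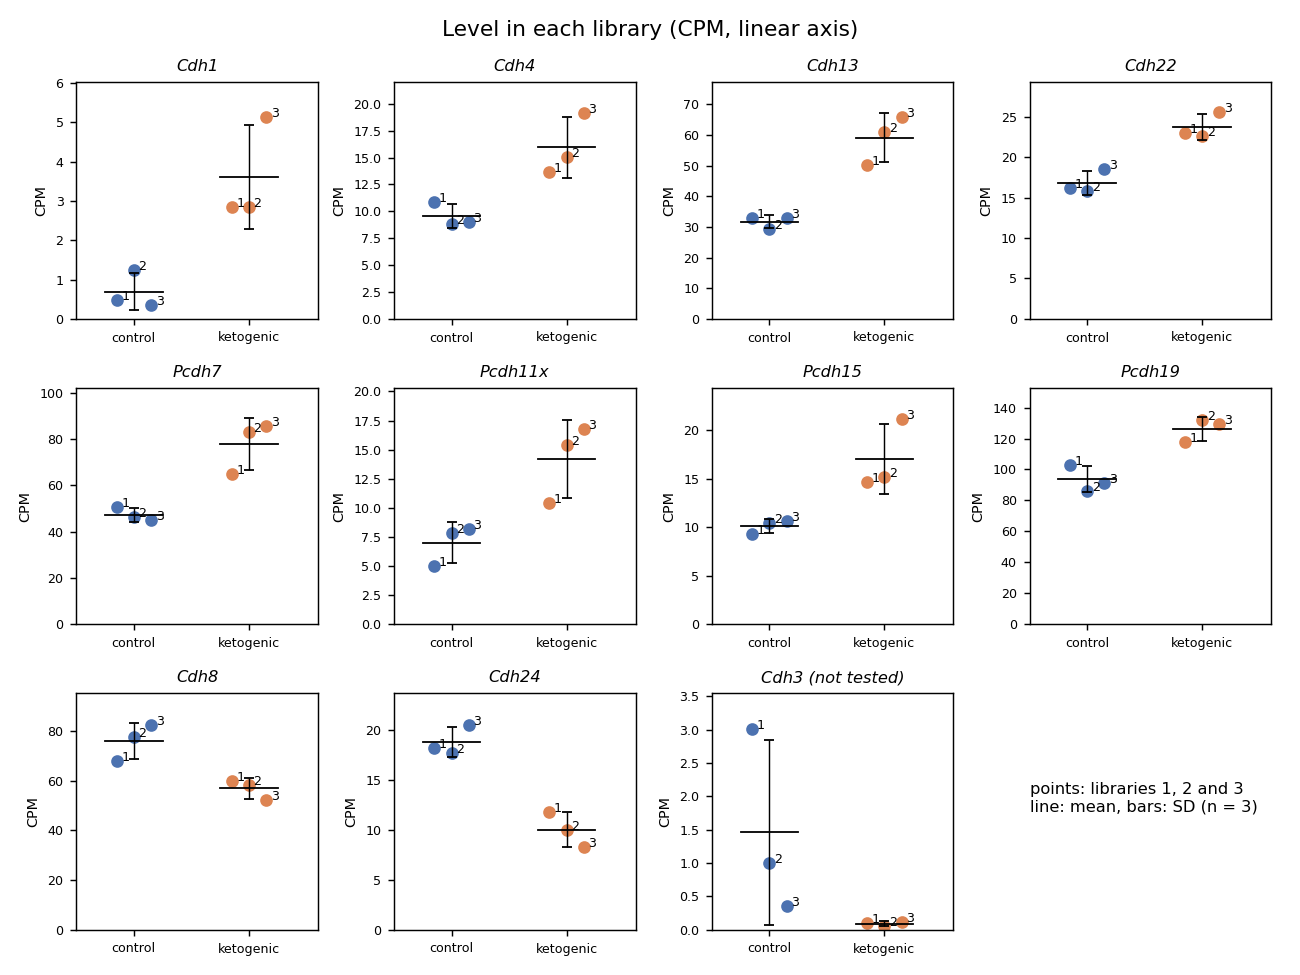
CPM of the 10 genes that passed and of Cdh3 in each library, on linear axes from 0; numbers name the library, lines are means and bars the SD (n = 3 per diet). The diets do not overlap in any panel, and control 1 of Cdh3, at 3.02 CPM, stands above all its other libraries.

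Of the 4 delta-1 protocadherins Pcdh7 and Pcdh11x rose and Pcdh1 and Pcdh9 did not pass. Pcdh7 is a membrane protein whose tail binds protein phosphatase 1 (ENSMUSG00000029108, chromosome 5, 57717967 to 58133230, plus strand). It had 50.5, 46.2 and 45.0 CPM on control diet and 65.0, 82.8 and 85.4 CPM on ketogenic diet. Its lowest ketogenic library, ketogenic 1, was clear of the controls. The log2 fold change was 0.72 ± 0.11 (adjusted p = 0.00297), and it passed in all 14 alternatives, with adjusted p up to 0.0449. Of its exonic bases 21.1% are shared with a transcript on the opposite strand that had 29 to 41 counts per library, and the strand setting of the counting is not given in the sources used here.

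Pcdh11x, an X-linked protocadherin, had 4.97, 7.86 and 8.17 CPM on control diet and 10.4, 15.4 and 16.7 CPM on ketogenic diet (chromosome X, 120290259 to 120910619, plus strand). In both diets library 1 was the lowest. The log2 fold change was 1.02 ± 0.22 (adjusted p = 0.0192), and the call was lost without control 2, ketogenic 2 or ketogenic 3 (adjusted p = 0.0565, 0.0955 and 0.0705), without control 1 and control 2 together (adjusted p = 0.200) and in limma on FPKM values. The abundant Pcdh1 stood at -0.18 (interval -0.30 to -0.05, adjusted p = 0.0908) and Pcdh9 at 0.14 (interval -0.02 to 0.31, adjusted p = 0.287).

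Of the 5 delta-2 protocadherins 1 rose. Pcdh19, the X-linked epilepsy gene, had 103.0, 86.4 and 91.6 CPM on control diet and 117.6, 131.9 and 129.4 CPM on ketogenic diet (ENSMUSG00000051323, chromosome X, 133582860 to 133688987, minus strand). The diets were apart, and the mean rose from 93.6 ± 8.50 to 126.3 ± 7.63 CPM (SD, n = 3). The log2 fold change of 0.43 ± 0.08 (adjusted p = 0.00881) fell short of the threshold without control 2 or ketogenic 2 (adjusted p = 0.0542 and 0.0624) and without control 1 and control 2 together (adjusted p = 0.0660). Pcdh10, a protocadherin of axon growth and synapse elimination, had 121.6, 109.8 and 111.6 CPM against 120.3, 147.8 and 148.3 CPM. Ketogenic 1 lay among the controls, and the gene did not pass (log2 fold change 0.28, adjusted p = 0.0776), though it did with DESeq2, without a filter and without ketogenic 1 (adjusted p = 0.0383, 0.00915 and 0.0114). Pcdh17 had a single high library, ketogenic 3 at 139.4 CPM with the other 5 between 96.8 and 107.4 CPM. Pcdh8 stood at -0.19 (interval -0.40 to 0.02) and Pcdh18 at 0.09 (interval -0.43 to 0.62).

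Of the last 3 protocadherins Pcdh15 rose, Pcdh20 did not pass and Pcdh12 was too low to test. Pcdh15, the partner of Cdh23 in hair cells and in brain a gene of oligodendrocyte precursors, had 9.29, 10.4 and 10.7 CPM on control diet and 14.7, 15.2 and 21.2 CPM on ketogenic diet (chromosome 10, 73099342 to 74649737, plus strand). The diets did not overlap, and the gene stood at 0.75 ± 0.16 on the log2 scale (adjusted p = 0.0158). Its call was lost without control 2 (adjusted p = 0.0627), without control 1 and control 2 together (adjusted p = 0.206) and in limma on FPKM values. Of 11 other precursor markers Sox10 alone passed and fell, and their sum was 643.7 to 668.1 CPM on control diet and 609.4 to 667.1 CPM on ketogenic diet, ranges that overlap. At an unadjusted p under 0.05 there were 3 higher and 2 lower. The 3 higher, Pdgfra, Cspg4 and Lhfpl3 (adjusted p = 0.0636, 0.163 and 0.0522), had every ketogenic library above every control library, as Pcdh15 did. Another 2 of the 11 had every ketogenic library below every control library. The median log2 fold change of the 11 was -0.02, with 5 above 0 and 6 below. The part of precursor cells in the rise of Pcdh15 was not tested. Pcdh20, given above, had a small and even difference, with a log2 fold change of -0.20 and an interval of -0.32 to -0.07 (adjusted p = 0.0545).

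Several neuronal marker lists also moved in these libraries, and the part of such cells in the rises of Cdh4, Cdh13, Cdh22 and the protocadherins was not tested. Of 20 interneuron markers 16 rose, with a sum of 1156 to 1164 CPM on control diet and 1562 to 2090 CPM on ketogenic diet. Among 15 markers of subiculum and cortex 8 rose (482.5 to 557.2 against 687.5 to 732.0 CPM), and of 14 tested thalamic and habenular markers 6 rose and 1 fell (404.1 to 473.1 against 509.0 to 523.2 CPM). The thalamic and habenular list shares Calb2 with the interneuron list and Slc17a6 with that of subiculum and cortex. Without genes shared between lists, 15 of 19 interneuron, 8 of 14 subiculum and cortex, and 5 of 11 thalamic and habenular markers rose. The 13 CA1 markers split into 4 higher and 5 lower, with Dcn and Nov also in the fibroblast list. Of 12 astrocyte and 12 microglia markers 0 passed in edgeR, with 1 and 1 at an unadjusted p under 0.05 and 1 and 0 in DESeq2. In the thalamic and habenular list Gbx2, Shox2 and Pou4f1 were at 0 in some libraries, and the other lists of this paragraph had no marker at 0 in any library.

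By position, chromosome 8 holds 8 of the 35 genes, of which Cdh1 and Cdh13 rose, Cdh8 fell, Cdh3 was lower without passing the filter, Cdh5, Cdh11 and Cdh15 did not pass, and Cdh16 was near 0. The 5 type II genes in a row on chromosome 15, Cdh6, Cdh9, Cdh10, Cdh12 and Cdh18, did not pass in edgeR or DESeq2, and 0 of the 5 had an unadjusted p under 0.05. Both genes on chromosome X rose. The clustered protocadherins are a related family with 57 genes in the table. Of the 52 tested 1 passed and rose, or 1.92% against 9.67% called over all tested genes. The difference between the families was not tested.

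Upstream sequences were available for 22 of the 35 genes in RefSeq's GRCm38.p6 table, which gives 250 bases before and 50 after each start. Those of 1 gene that fell and 3 that rose are shown to let the reader compare the start regions of genes that moved apart; capitals mark GGGCGG, the GC box, on either strand. They are chr14:54641315-54641614 on the minus strand for Cdh24, chr2:165234688-165234987 on the minus strand for Cdh22, chr5:57717831-57718130 on the plus strand for Pcdh7 and chrX:133688944-133689243 on the minus strand for Pcdh19.
Cdh24: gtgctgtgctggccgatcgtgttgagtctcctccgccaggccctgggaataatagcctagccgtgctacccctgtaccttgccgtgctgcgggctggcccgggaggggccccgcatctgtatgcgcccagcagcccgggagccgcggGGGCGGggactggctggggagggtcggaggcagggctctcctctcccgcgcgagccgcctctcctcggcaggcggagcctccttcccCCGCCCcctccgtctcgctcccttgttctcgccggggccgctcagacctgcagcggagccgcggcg
Cdh22: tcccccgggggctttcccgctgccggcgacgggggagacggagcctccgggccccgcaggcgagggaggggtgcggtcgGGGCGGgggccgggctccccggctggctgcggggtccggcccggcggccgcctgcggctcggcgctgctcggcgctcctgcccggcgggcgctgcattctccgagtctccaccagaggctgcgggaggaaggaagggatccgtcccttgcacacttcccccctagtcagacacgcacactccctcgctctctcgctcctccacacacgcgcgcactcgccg
Pcdh7: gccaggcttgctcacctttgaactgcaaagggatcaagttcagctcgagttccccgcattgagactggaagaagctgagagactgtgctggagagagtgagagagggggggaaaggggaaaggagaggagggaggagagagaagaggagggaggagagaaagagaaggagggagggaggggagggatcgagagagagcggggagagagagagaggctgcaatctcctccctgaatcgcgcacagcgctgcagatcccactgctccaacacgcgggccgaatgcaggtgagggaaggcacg
Pcdh19: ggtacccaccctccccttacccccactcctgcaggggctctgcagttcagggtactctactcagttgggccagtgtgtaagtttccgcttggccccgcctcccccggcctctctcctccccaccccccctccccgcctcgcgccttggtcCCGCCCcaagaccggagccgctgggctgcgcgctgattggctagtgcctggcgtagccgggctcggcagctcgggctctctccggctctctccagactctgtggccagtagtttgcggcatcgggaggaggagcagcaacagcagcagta
Cdh24 has 2 matches, Cdh22 and Pcdh19 have 1 each and Pcdh7 has none, so genes of either direction hold the motif. It occurs in 9 of the 25 listed starts of these genes and in 35.7% of all 32851 in the table. TATAAA on either strand occurs in 2 of the 25, those of Pcdh8 and Pcdh15, and in 13.6% of all. The 4 sequences hold 30, 38, 11 and 18 CG pairs, in the order shown, with a median of 14 over the 25 starts and 7 over all. For 3 of the 25, the listed start lies far inside the gene as counted, by 722525 bases in Pcdh15, 662187 in Cdh12 and 487441 in Cdh18.

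The catenins and other binding partners of cadherins changed in part. Of 29 tested partner genes 2 rose and 6 fell, with a median log2 fold change of -0.11 against -0.01 over all genes and with 27.6% called against 9.67%. The core catenins did not pass. Ctnnb1, the gene of beta-catenin, stood at 0.10 (adjusted p = 0.367), Ctnna2, the neuronal alpha-catenin, at -0.03 (adjusted p = 0.850) and Ctnnd1, p120 catenin, at -0.28 (adjusted p = 0.227). Ctnnd2, the delta-catenin of dendrites, rose from 190.9 ± 6.64 to 230.5 ± 4.55 CPM (SD, n = 3; log2 fold change 0.27 ± 0.06, adjusted p = 0.0154). Ptprm, an adhesive tyrosine phosphatase that binds cadherins, rose by 0.44 ± 0.10 (adjusted p = 0.0189). Of the 14 alternatives, Ctnnd2 passed in 11 and Ptprm in 7.

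Genes of the WAVE complex were among those that fell. Nckap1 fell from 868.4 ± 5.40 to 715.6 ± 31.3 CPM (SD, n = 3; adjusted p = 0.0147), Cyfip2 from 1161 ± 55.4 to 984.0 ± 17.6 CPM (adjusted p = 0.0328) and Abi1 from 180.4 ± 5.26 to 151.8 ± 6.49 CPM (adjusted p = 0.0290). Their log2 fold changes were small, at -0.28, -0.24 and -0.25. Of the 14 alternatives, 10 kept the call of Nckap1, 9 that of Abi1 and 6 that of Cyfip2. Of the other listed WAVE genes Cyfip1 stood at -0.23 (adjusted p = 0.0812), Wasf1 at -0.19 (adjusted p = 0.0961) and Abi2 at -0.07 (adjusted p = 0.603). Magi2, a scaffold protein of synapses, fell by 0.33 (adjusted p = 0.00788), Ptpn1, a phosphatase of beta-catenin, by 0.38 (adjusted p = 0.0491) and Ctnnal1, a relative of alpha-catenin, by 0.92 (adjusted p = 0.0227). Magi2 kept its call in 12 alternatives, but Ptpn1 and Ctnnal1 in 6 each, and Ptpn1 lost it with the replicate block.

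Of 20 tested genes of the wider cadherin superfamily 3 passed, all of which rose, or 15% against 9.67% over all genes. Without Fat2, which passed the filter through its ketogenic libraries alone and so had to differ, the count was 2 of 19, or 10.5%, near the share over all genes. Fjx1, a homologue of a fly kinase that acts on Fat cadherins and itself no cadherin, rose by 0.45 ± 0.08 (adjusted p = 0.00807). Dsc3, a desmosomal cadherin of stratified epithelia, rose from 1.06 ± 0.658 to 4.71 ± 1.95 CPM (SD, n = 3; adjusted p = 0.0182), and passed in 10 of the 14 alternatives, where Fjx1 passed in 13. Of the Dsc3 libraries 2 control and 3 ketogenic were over the filter's cut. Its control libraries alone would not have kept it, so its p is weak support for the rise. Dsc3 is 1 of the 2 genes counted without Fat2. Fat2 rose from 0.24 ± 0.057 to 1.27 ± 0.399 CPM (SD, n = 3), values that describe it without support from a test. The 3 Celsr genes and the 3 calsyntenins did not pass. Over both lists 11 genes passed, but 3 without control 2, 1 without ketogenic 2 (Fat2), 4 without ketogenic 3 and 3 without control 1 and control 2 together, of which 2 were among the 11.

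**Figure D4:**
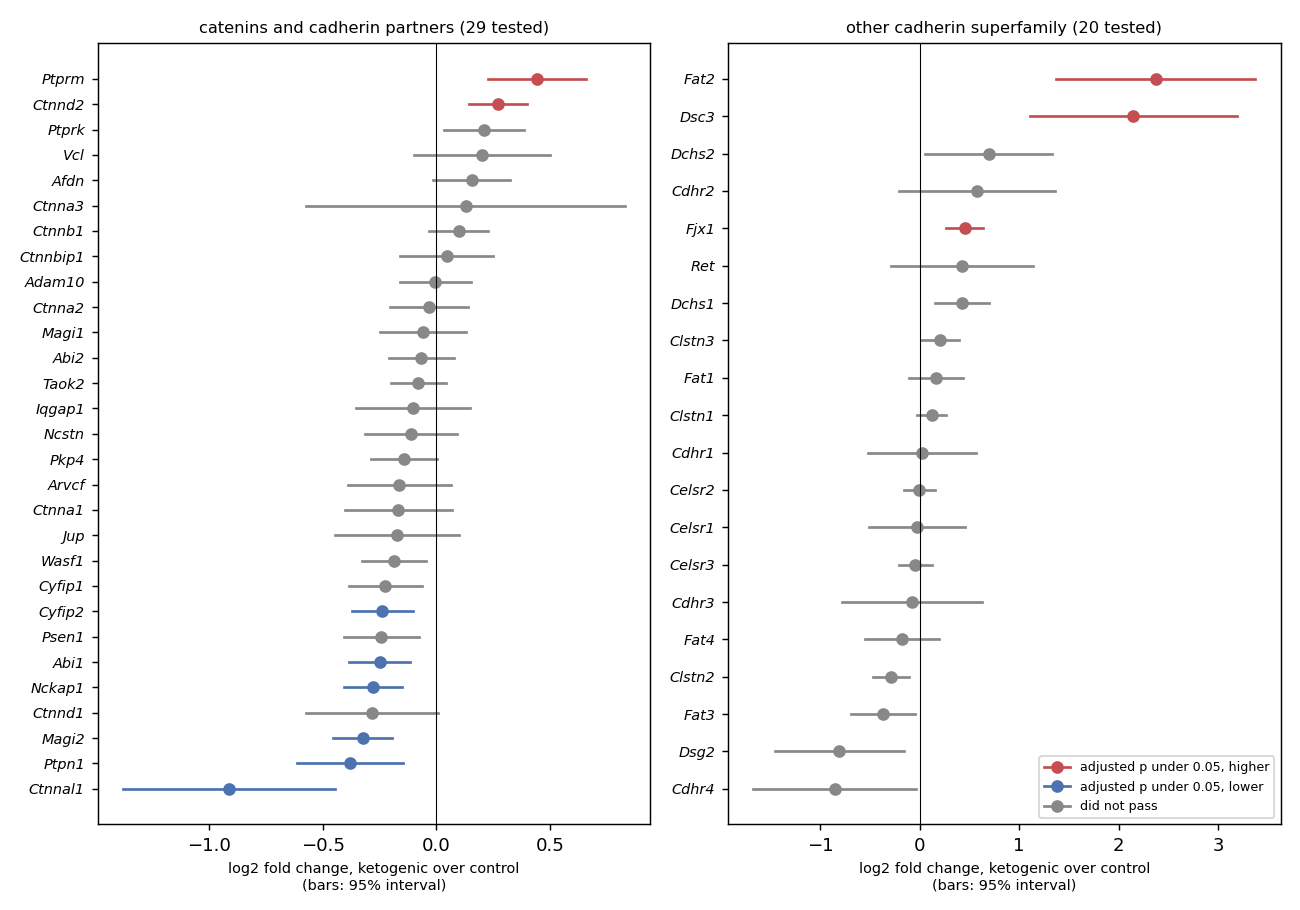
Log2 fold change, ketogenic over control, of 29 catenins and partners (left) and 20 other cadherin superfamily genes (right), with 95% intervals from edgeR and colour for the call. On the left Ctnnal1 stands lowest at -0.92 and Ptprm highest at 0.44, and Fat2 and Dsc3 are highest on the right at 2.37 and 2.15.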

How the data were processed

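The deposited tables hold, for each of the 6 libraries, whole-number counts per Ensembl gene and FPKM values made by the authors. The submitters' processing notes name CASAVA, featureCounts 1.5.0-p3, DESeq2 1.10.1 and mm9, but 97.1% of 53620 gene identifiers shared with GENCODE M21 (GRCm38), and 34 of the 35 genes described, lie at identical positions there, so coordinates were taken as GRCm38. Aligner, strand setting and FPKM software are not given in the sources used.

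Diet was taken from each sample's label. edgeR 4.0.16 (R 4.3.3) was fitted to the counts of genes kept by filterByExpr (16478 of 53715), with TMM scaling and no covariate; standard errors are the log2 fold change over the square root of F, and CPM uses TMM-scaled library sizes. The common biological coefficient of variation was 11.6% and the median standard error 0.13. Intervals cover 95%. Steps were tested on simulated data. Of 100 genes planted with a 1.5-fold change the fit called 46, and of 100 with a 2-fold change 85. There were 16 false calls, and a gene that did not pass may still differ. Alternatives used RLE scaling, no filter, a mean of at least 1 CPM, DESeq2 1.42.0, limma 3.58.1 on log2 FPKM with 1 or 0.1 added, the replicate number as a block, fits lacking 1 library, and control 1 and 2 left out together. All 35 genes are named; those past the threshold and the 5 most abundant get a value per library, and of the partner lists the genes past the threshold are named, beside some core genes chosen after their values were seen. The genes and lists were chosen with earlier results of these data known.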

Additional observations from a re-analysis of the deposited data

How the results depend on the processing

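The 8 rises and 2 falls were the same genes with RLE scaling, a filter at a mean of 1 CPM and the replicate block. DESeq2 and the fit without a filter each gave 9 and 3, adding Pcdh10 and Cdh3. On log2(FPKM + 1) and log2(FPKM + 0.1) values 5 rose and 2 fell, and 6 partner genes passed in place of 11. Without control 1 and control 2 together the numbers were 3, 1 and 3. With single libraries left out 3 to 9 genes rose, 1 to 3 fell and 1 to 13 partner genes passed. Over all genes the calls dropped from 1593 to 677 without control 2, 538 without ketogenic 2 and 289 without control 1 and 2, so fewer calls among the genes described go with fewer calls overall; the cause was not tested. Of 420 single-gene results under the 14 alternatives, 389 kept their side of the threshold, 28 no longer passed, 3 newly passed and none that passed in either fit changed sign. Cdh13, Cdh24 and Pcdh7 passed in all 14, as did Cdh1, for which this is no sign of stability, since it passed the filter through its ketogenic libraries.

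Libraries share replicate numbers 1 to 3 across the diets, but no label says what a number marks. Deviations from the diet means correlated at -0.043, 0.072 and 0.047 between same-numbered libraries. Between libraries of different number they correlated at -0.147 to 0.089, and not every library correlated best with its own number. With 3 libraries per diet these values cannot show whether same-numbered libraries were handled together. With the replicate block 8 genes rose, 2 fell and 10 partner genes passed. Genes with few counts, such as Cdh15, Cdh23 and Pcdh18, have wide intervals; in Cdh15 control 1 alone stands apart.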
